A study of Bos taurus with 27 samples.

Results

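The genes described here are 34 genes of the cell cycle and of DNA replication, measured in cattle lymph nodes before and during feeding by the tick Rhipicephalus microplus. They were taken as a list of names, and every probe on the array whose gene symbol, as listed or as brought up to date, matched a name was used. All 34 had a probe, 83 probes in all, with 1 to 5 probes per gene averaged, out of 14495 named genes. The 27 arrays come from biopsies of the superficial cervical lymph node of Brahman, Bonsmara and Holstein-Friesian cattle, with 3 arrays for each breed before any tick attached (baseline), while larvae fed (larva) and while adult ticks fed (adult). The description of adult replicate 2 of each breed names both larvae and adult, and these 3 arrays were grouped as adult by their titles and characteristics. Brahman cattle are zebu (Bos indicus), Holstein-Friesian are taurine cattle kept for milk, and Bonsmara were bred from Afrikaner and British beef cattle. Replicates are called biological in the labels, which leave out the animals' age and whether the same animals gave the samples of several stages. No node was sampled from uninfested animals at the later times, so time and tick feeding cannot be told apart.

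A dividing cell first copies its DNA and then splits the copies between daughter cells. Cyclins switch on their partner kinases in turn, E2F factors turn on the genes of the DNA synthesis phase, the MCM helicase opens the origins of replication, and later the mitotic kinases, kinetochore proteins and spindle motors line up and separate the chromosomes. In a lymph node the dividing cells are mostly activated lymphocytes, above all the B cells of germinal centres and the precursors of plasma cells, and the mRNAs of these genes are read as a measure of how much of the tissue is dividing.

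Each array set the RNA of 1 sample (red dye) against the same pool of lymph node RNA (green dye), and the deposited value is a log2 ratio, likely sample over pool. Base and direction are not written in the file. If the direction were the opposite, every sign below would turn. A difference of 1 log2 unit is a 2-fold change, and the pool cancels in every difference. Array medians lay between -0.0095 and 0.0059. One array stood apart: Holstein-Friesian larva replicate 3 correlated at -0.085 on average with its 2 fellow arrays, and it enters every larval mean over breeds. Because the values are ratios to a lymph node pool, marker genes of the node show relative and not absolute levels, and the tissue label cannot be checked by presence or absence.

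The 34 genes stood lower while adult ticks fed than at either other stage. The median over the genes, taken array by array, lay between -0.40 and 0.42 at baseline, between -0.30 and 0.64 with larvae and between -0.82 and 0.17 with adult ticks. It was above 0 on 7 of 9 baseline arrays, 7 of 9 larval arrays and 1 of 9 adult arrays. In Brahman nodes the 3 array medians were 0.12, -0.11 and 0.10 at baseline, 0.64, 0.05 and 0.0003 with larvae, and -0.16, -0.32 and -0.82 with adult ticks. In Bonsmara nodes they were 0.08, 0.42 and 0.14 at baseline, -0.07, 0.14 and 0.11 with larvae, and -0.06, -0.20 and -0.15 with adult ticks. In Holstein-Friesian nodes they were 0.32, -0.40 and 0.33 at baseline, 0.32, 0.40 and -0.30 with larvae, and -0.19, -0.18 and 0.17 with adult ticks. The adult arrays lay below all baseline arrays in Brahman and Bonsmara nodes, and the stages overlapped in Holstein-Friesian nodes, where the arrays of 1 group differed most at baseline and with larvae (SD 0.42 and 0.39). With adult ticks the SD was 0.35 in Brahman nodes, 0.07 in Bonsmara nodes and 0.20 in Holstein-Friesian nodes. Brahman adult replicate 3 was the lowest of the 27 arrays for 31 of the 34 genes, and Brahman larva replicate 1 the highest for 19.

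**Figure D1:**
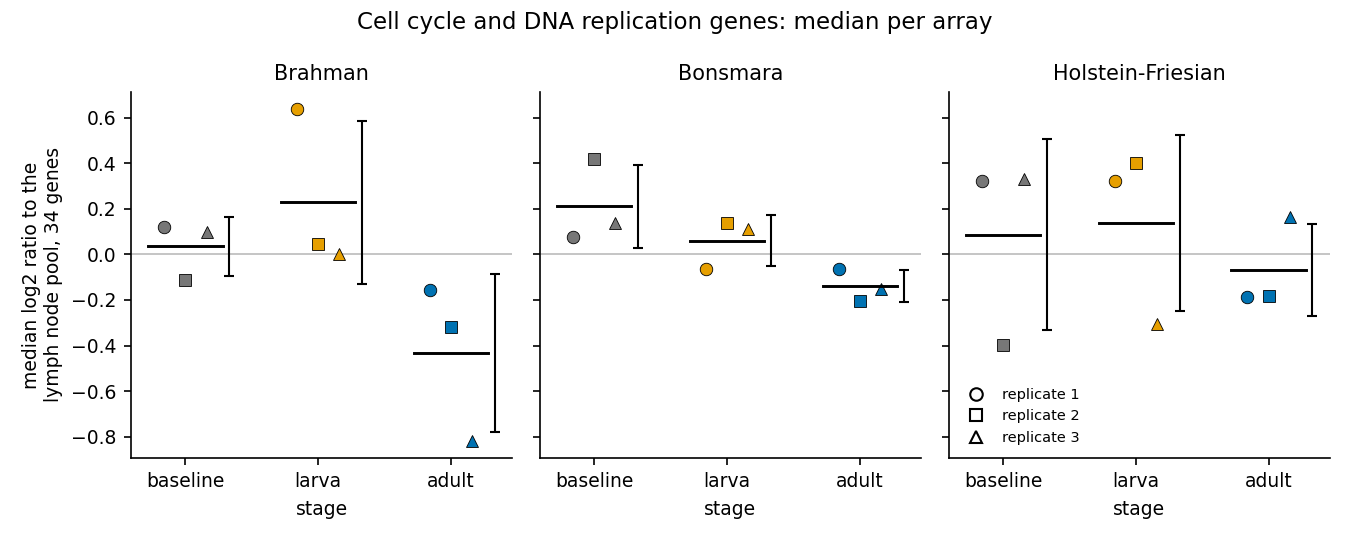
Median log2 ratio to the lymph node pool over the 34 genes on each array (points, shaped by replicate number), by stage and breed; lines are means of 3 arrays and bars 1 SD. The adult arrays run between -0.82 and 0.17, with 1 of 9 above 0, against 7 of 9 at baseline and 7 of 9 with larvae.

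**Figure D2:**
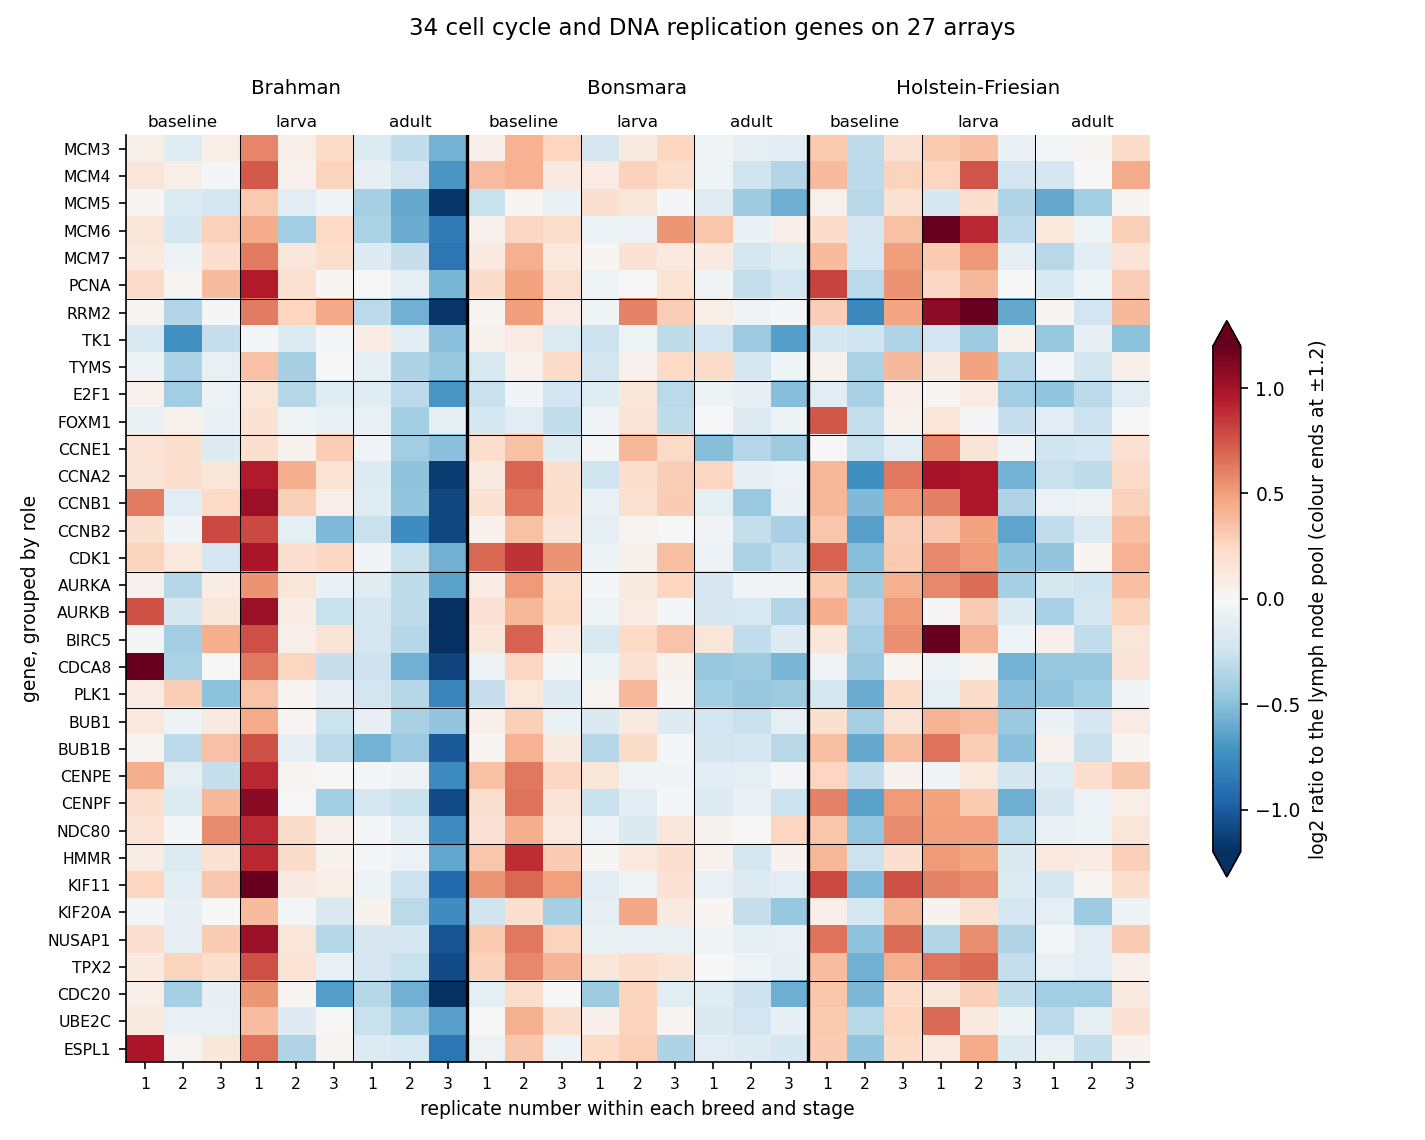
Log2 ratio to the pool of each of the 34 genes (rows, grouped by role) on each of the 27 arrays (columns, grouped by breed and stage); red is above the pool, blue below, and colours end at 1.2 in either direction. Whole columns share a colour, with Brahman adult replicate 3 the darkest blue and Brahman larva replicate 1 mostly red.

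The first comparison asks how nodes with feeding adult ticks differ from baseline nodes, as the mean of the differences in the 3 breeds. All 34 genes had a difference below 0, with a median of -0.35 and a range of -0.58 (CDCA8) to -0.08 (TYMS). Over all 28927 features tested, 56.7% were below 0 and the median was -0.02. None of the 34 passed limma's test at an adjusted p under 0.05 (Benjamini-Hochberg over all features), a threshold that 0.0346% of all features passed. At an unadjusted p under 0.05, 21 of the 34 (61.8%) were lower and 0 higher, against 5.78% of all features lower and 5.67% higher. The standard errors of these differences ran from 0.0953 (TK1) to 0.2126 (RRM2). The 34 differences are not 34 separate observations, since the genes move together from array to array, as described further down.

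By role, the median difference was smallest in the enzymes that supply nucleotides (3 genes) and in the transcription factors (2 genes). These small values rest on few probes: TYMS has 1, and the probes of TK1 and of FOXM1 disagree, as described further down. In the MCM helicase subunits MCM3 to MCM7 and PCNA, the clamp that holds DNA polymerase on its template, the median of the 6 was -0.35. MCM5 had -0.39 (SE 0.11, adjusted p = 0.2278) and MCM7 -0.38 (SE 0.12, adjusted p = 0.2453). The nucleotide supply genes RRM2 (ribonucleotide reductase), TK1 (thymidine kinase) and TYMS (thymidylate synthase) had -0.24, -0.10 and -0.08. E2F1, which turns on genes of the DNA synthesis phase, had -0.15, and FOXM1, which turns on genes of mitosis, had -0.11.

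Among the cyclins and their kinase, CCNE1 (cyclin E1, which drives entry into DNA synthesis) had -0.30 (SE 0.10, adjusted p = 0.2696). CDK1, the kinase that starts mitosis, and its partners CCNB1, CCNB2 and CCNA2 had -0.49, -0.48, -0.49 and -0.43. The mitotic kinases and the chromosomal passenger complex, which corrects wrong spindle attachments, had a median of -0.39 over 5 genes. Its members CDCA8, AURKB and BIRC5 had -0.58 (SE 0.21), -0.56 (SE 0.18, adjusted p = 0.2605) and -0.39. AURKA and PLK1, kinases of the spindle poles and of mitotic entry, had -0.26 and -0.29.

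The kinetochore and checkpoint genes (BUB1, BUB1B, CENPE, CENPF, NDC80) had a median of -0.28 and the spindle and motor genes (HMMR, KIF11, KIF20A, NUSAP1, TPX2) one of -0.44. The largest in these groups was KIF11, the motor that pushes spindle poles apart, at -0.53. CDC20 and UBE2C, which work with the ubiquitin ligase that ends mitosis, had -0.40 and -0.32, and ESPL1, the protease separase that cuts the ties between sister chromatids, had -0.38.

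**Figure D3:**
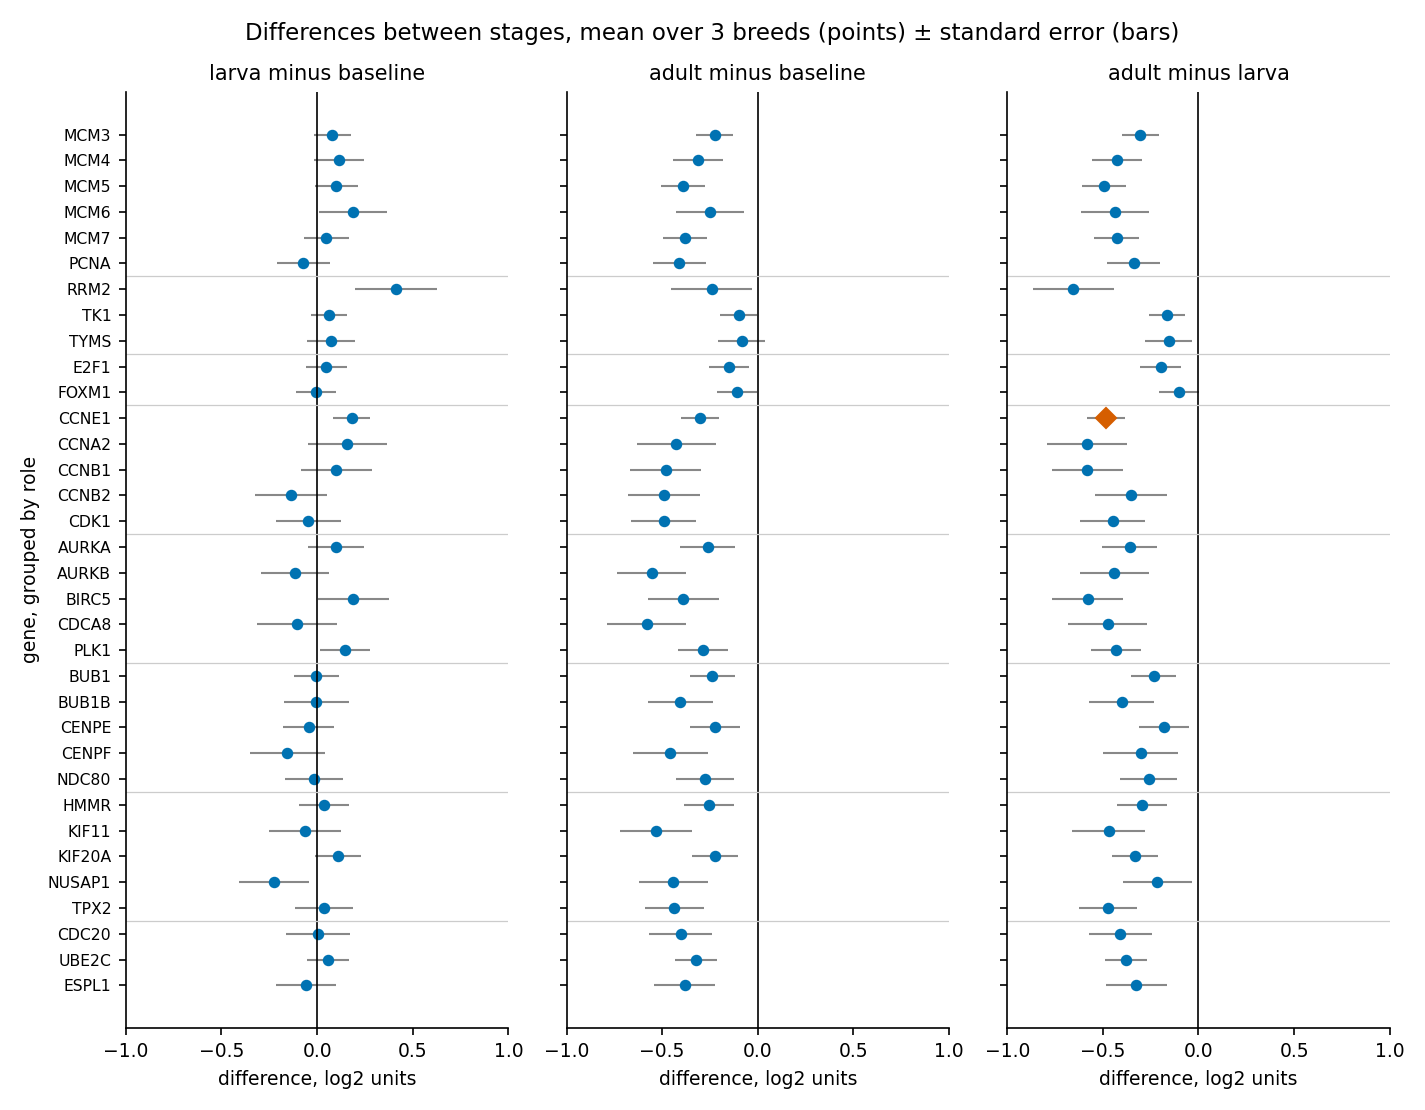
Difference in log2 ratio between stages for each gene (points), as the mean over 3 breeds, with the standard error of the fit (bars), grouped by role; the orange diamond is past the adjusted p threshold. All 34 points lie below 0 for adult minus baseline and for adult minus larva, and 20 of 34 lie above 0 for larva minus baseline.

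MCM5 shows the values behind such a difference. In Brahman nodes it stood at 0.01, -0.17 and -0.21 at baseline, 0.31, -0.12 and -0.04 with larvae, and -0.39, -0.61 and -1.17 with adult ticks. In Bonsmara nodes it stood at -0.27, 0.02 and -0.08 at baseline, 0.19, 0.14 and -0.03 with larvae, and -0.14, -0.43 and -0.59 with adult ticks. In Holstein-Friesian nodes it stood at 0.05, -0.34 and 0.18 at baseline, -0.20, 0.20 and -0.36 with larvae, and -0.61, -0.41 and 0.02 with adult ticks. The adult arrays lay below every baseline and larval array in Brahman nodes and below every larval array in Bonsmara nodes, and the stages overlapped in Holstein-Friesian nodes.

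MCM7 had group means of -0.43 ± 0.38 with adult ticks and 0.08 ± 0.14 at baseline in Brahman nodes, -0.08 ± 0.16 and 0.22 ± 0.18 in Bonsmara nodes, and -0.10 ± 0.25 and 0.22 ± 0.38 in Holstein-Friesian nodes, adult ticks before baseline (SD, n = 3). Its lowest array was Brahman adult replicate 3 at -0.86, and the adult arrays reached 0.16. AURKB stood at -0.20, -0.30 and -1.34 with adult ticks in Brahman nodes, against 0.76, -0.19 and 0.14 at baseline. In Bonsmara nodes it stood at -0.20, -0.19 and -0.36 with adult ticks, against 0.17, 0.40 and 0.22 at baseline. In Holstein-Friesian nodes it stood at -0.39, -0.21 and 0.26 with adult ticks, against 0.43, -0.35 and 0.51 at baseline. The Bonsmara groups did not overlap, the Brahman groups were apart by less than 0.01, and the Holstein-Friesian groups did.

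The second comparison sets nodes with adult ticks against nodes with larvae. It uses the same adult arrays as the first, so that both carry the same deviations. All 34 genes again had a difference below 0, with a median of -0.39 and a range of -0.65 (RRM2) to -0.10 (FOXM1), where 51.4% of all features were below 0. CCNE1 passed limma's adjusted threshold, 1 of 34, where 0.232% of all features passed and 0.0622% passed as lower. At an unadjusted p under 0.05, 23 of the 34 (67.6%) were lower and 0 higher, against 4.69% of all features lower and 5.52% higher. Without the 3 adult arrays numbered 2, a setting chosen after the data were seen, all 34 genes were still below 0 in both adult comparisons, with medians of -0.34 against baseline and -0.37 against larvae, and 14 and 16 had an unadjusted p under 0.05. The share of all features at that p is not given for this fit. At the adjusted threshold it called 33 and 23 of all features, against 10 and 67 with those arrays.

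CCNE1 fell by 0.48 on the log2 scale with adult ticks relative to larvae (SE 0.0985, adjusted p = 0.04514). In Brahman nodes it stood at -0.05, -0.42 and -0.50 with adult ticks, against 0.20, 0.04 and 0.30 with larvae, and its baseline arrays at 0.17, 0.19 and -0.16. In Bonsmara nodes it stood at -0.51, -0.34 and -0.43 with adult ticks, against -0.02, 0.40 and 0.23 with larvae, and its baseline arrays at 0.21, 0.35 and -0.15. In Holstein-Friesian nodes it stood at -0.24, -0.21 and 0.19 with adult ticks, against 0.59, 0.15 and -0.03 with larvae, and its baseline arrays at 0.01, -0.26 and -0.13. Adult and larval arrays did not overlap in Brahman and Bonsmara nodes, and overlapped in Holstein-Friesian nodes through 1 adult array. Both CCNE1 probes had the same sign. The call is marginal: it was lost without any 1 of 15 of the 18 arrays compared (differences of -0.53 to -0.42 over all 18 such fits, adjusted p from 0.0208 to 0.1131), in a fit of the adult and larval arrays alone (adjusted p = 0.09183), with the replicate number as a block (adjusted p = 0.06456) and without the 3 adult arrays numbered 2 (-0.46, adjusted p = 0.1721).

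The next smallest p-values belonged to MCM5 at -0.49 (SE 0.11, adjusted p = 0.0754), MCM7 at -0.43 (SE 0.12, adjusted p = 0.142) and UBE2C, the ubiquitin-conjugating enzyme of mitotic exit, at -0.38 (SE 0.11, adjusted p = 0.1697). RRM2, with the largest difference, had -0.65 (SE 0.21, adjusted p = 0.2324), on arrays that spread widely. In Brahman nodes RRM2 stood at -0.31, -0.58 and -1.17 with adult ticks, against 0.63, 0.25 and 0.45 with larvae. In Bonsmara nodes it stood at 0.07, -0.05 and -0.03 with adult ticks, against -0.05, 0.59 and 0.29 with larvae. In Holstein-Friesian nodes it stood at 0.03, -0.23 and 0.39 with adult ticks, against 1.07, 1.38 and -0.62 with larvae. The stages were apart in Brahman nodes and overlapped in the other breeds. The -0.62 is the array that stands apart from its group, and without it the difference was -0.86 (adjusted p = 0.02208). The fit without that array called 142 of all features, against 67 with it. CCNA2, CCNB1 and BIRC5 had -0.58 each, and the smallest differences were those of FOXM1, TYMS (-0.16), TK1 (-0.16) and CENPE (-0.18).

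**Figure D4:**
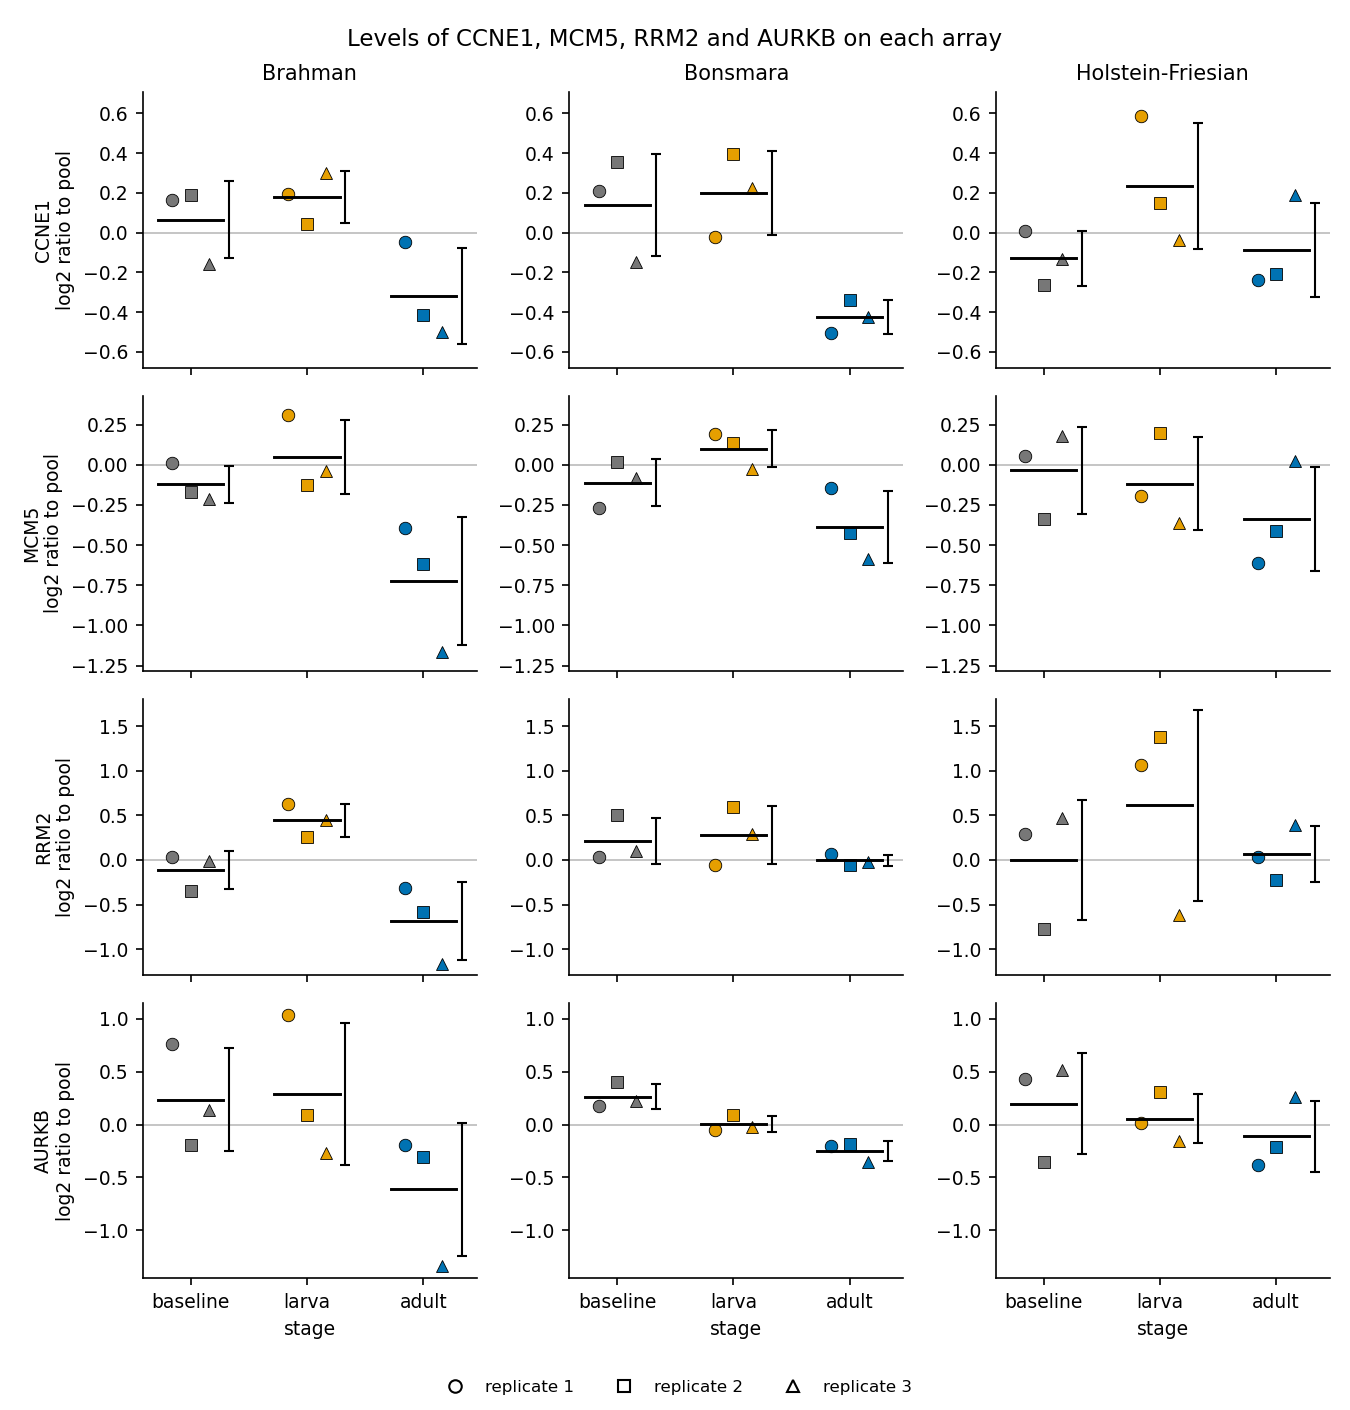
Log2 ratio to the pool of CCNE1, MCM5, RRM2 and AURKB on each array (points, shaped by replicate number), by stage and breed; lines are means of 3 arrays and bars 1 SD, and the vertical scale differs between genes. CCNE1 with adult ticks lies below its larval arrays in Brahman and Bonsmara nodes, while RRM2 in Holstein-Friesian larval nodes spans -0.62 to 1.38.

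For TK1 the averaged value hides a disagreement. Its 2 probes correlated at -0.21 over the 27 arrays, with the group means left in. In a fit of single probes 1 of them had -0.54 for adult minus larva (adjusted p = 0.02859) and the other 0.21. The 4 probes of MCM3 also disagreed, from -0.55 to 0.19 in the same comparison. The 2 probes of FOXM1 had -0.24 and 0.02 for adult minus baseline. The other members with several probes had the same sign on each of them in both adult comparisons.

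With larvae the genes did not shift together relative to baseline. The difference was above 0 for 20 genes (43.9% of all features were) and below 0 for 14, with a median of 0.04 and a range of -0.23 (NUSAP1, a protein that bundles spindle microtubules) to 0.41 (RRM2). By limma, 0 of 34 passed the adjusted threshold, which 1.21% of all features passed, and none of the 34 reached an unadjusted p under 0.05, which 5.94% of all features did as higher and 6.58% as lower. Smallest were the p-values of RRM2 (0.41, SE 0.21, adjusted p = 0.4396), CCNE1 (0.18, SE 0.10), NUSAP1 and PLK1 (0.15, SE 0.13). Of the 6 replication fork genes 5 were above 0, and all 5 kinetochore genes were below 0, by at most 0.16. RRM2 passed without Holstein-Friesian larva replicate 3 (0.62, adjusted p = 0.0457), in a fit that called 579 of all features, against 351 with that array. Without that array and Bonsmara larva replicate 3, the median over the 34 genes was 0.10 for larva minus baseline and -0.47 for adult minus larva. The sign for larva minus baseline rested on single arrays: without Holstein-Friesian baseline replicate 2 the median was -0.03, with 14 genes above 0 and 20 below.

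NUSAP1 stood at 1.03, 0.14 and -0.34 with larvae in Brahman nodes, against 0.21, -0.10 and 0.30 at baseline. In Bonsmara nodes it stood at -0.09, -0.08 and -0.09 with larvae, against 0.31, 0.63 and 0.27 at baseline. In Holstein-Friesian nodes it stood at -0.35, 0.56 and -0.36 with larvae, against 0.65, -0.48 and 0.67 at baseline. The groups did not overlap in Bonsmara nodes, where the larval arrays were almost equal, and overlapped in the other breeds. PLK1 in Bonsmara nodes stood at 0.04, 0.38 and 0.01 with larvae, against -0.28, 0.12 and -0.15 at baseline, and its group means differed by less than 1 SD in the other breeds.

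Within single breeds 0 of 34 genes passed the adjusted threshold in any of the 9 stage comparisons. In Bonsmara nodes 1.11% of all features passed for larva minus baseline, 0.0311% for adult minus baseline and 0.0484% for adult minus larva. In Brahman nodes 0%, 0% and 0.00346% passed in the same comparisons, and in Holstein-Friesian nodes 0.00346%, 0% and 0.00346%. For adult minus baseline the median difference was -0.53 in Brahman nodes, -0.40 in Bonsmara nodes and -0.13 in Holstein-Friesian nodes. The counts below 0 were 33, 33 and 29 of 34, where 54.1%, 53.7% and 51.7% of all features were. At an unadjusted p under 0.05, 14, 7 and 0 genes were lower, where 6.81%, 6.59% and 2.15% of all features were. In Brahman nodes CCNB2 had -1.02 (SE 0.33, adjusted p = 0.2967) and CDCA8 -1.11 (SE 0.36, adjusted p = 0.2967). One array weighs on the CDCA8 value, since the gene stood at 1.78 on Brahman baseline replicate 1 and at -0.38 and 0.00 on the others. In Bonsmara nodes CDK1 had -0.94 (SE 0.29, adjusted p = 0.2692), from -0.07, -0.38 and -0.27 with adult ticks, against 0.69, 0.87 and 0.54 at baseline, which do not overlap.

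The adult and baseline arrays did not overlap, with adult lower, for 17 genes in Brahman nodes, 23 in Bonsmara nodes and 0 in Holstein-Friesian nodes, where 6.54%, 11.6% and 5.02% of all features did so. Without Brahman adult replicate 3 the Brahman median was -0.31, and without Holstein-Friesian baseline replicate 3 the Holstein-Friesian median was 0.04. Counted over breeds, 27 genes were below 0 in all 3 (17.4% of all features were), and the 7 exceptions were MCM3, RRM2, TK1, FOXM1, CCNE1, CENPE and HMMR.

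For adult minus larva the median was -0.69 in Brahman nodes, -0.22 in Bonsmara nodes and -0.21 in Holstein-Friesian nodes, with 34, 32 and 32 genes below 0, where 52.2%, 51.2% and 50.1% of all features were. At an unadjusted p under 0.05, 27, 3 and 0 genes were lower, where 3.89%, 4.31% and 1.98% of all features were. Arrays did not overlap, with adult lower, for 20, 11 and 0 genes, where 7.32%, 10.4% and 4.29% of all features did so. Without Brahman larva replicate 1 the Brahman median was -0.43, and leaving out 1 array moved the Holstein-Friesian median between -0.45 (without larva replicate 3) and -0.09 (without larva replicate 2). For larva minus baseline the medians were 0.15, -0.18 and 0.07. Leaving out 1 array moved them between -0.05 (without larva replicate 1) and 0.32 (without larva replicate 3) in Brahman nodes, between -0.22 (without baseline replicate 1) and -0.04 (without baseline replicate 2) in Bonsmara nodes, and between -0.13 (without baseline replicate 2) and 0.28 (without larva replicate 3) in Holstein-Friesian nodes. Bonsmara was the breed in which most genes, 27 of 34, were below 0 with larvae (53.5% of all features), and 10 did not overlap with baseline (13.9% of all features). In Brahman nodes 31 of 34 were above 0 (48.1% of all features). Only RRM2 and TK1 did not overlap there, a share near the 5.79% of all features, so it says nothing about the 34 as a list.

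The breeds' responses were also compared directly. By limma's F test of the breed by stage interaction, 0 of 34 genes passed, and the smallest p was that of CENPE (0.08675, adjusted p = 0.7334). Of all features 0% passed this test. An unadjusted p under 0.05 was reached by 6.99% of them and by 0 of the 34 genes. The larger median difference in Brahman nodes is therefore not shown to differ from that of the other breeds. For adult minus baseline the Brahman response minus the Holstein-Friesian response had a median of -0.37 over the genes, and the Brahman response minus the Bonsmara response one of -0.19, with 0 of 34 genes and 0% of all features called in each.

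Between breeds at 1 stage 0 of 34 genes passed in any of 9 comparisons. At baseline 0.0207% of all features passed for Brahman minus Holstein-Friesian nodes, 0.152% for Brahman minus Bonsmara nodes and 0.225% for Bonsmara minus Holstein-Friesian nodes. With larvae 0% passed in each pair, and with adult ticks 0%, 0% and 0.00346%. With adult ticks the median was -0.40 for Brahman minus Holstein-Friesian nodes (33 of 34 below 0), -0.28 for Brahman minus Bonsmara nodes (32 below 0) and -0.10 for Bonsmara minus Holstein-Friesian nodes (27 below 0), where 50.7%, 48.8% and 51.2% of all features were below 0. Leaving out 1 array moved these medians between -0.53 and -0.18, between -0.39 and -0.11, and between -0.18 and 0.01. The values nearest 0 in the Brahman pairs came without Brahman adult replicate 3, and the 0.01 without Holstein-Friesian adult replicate 3. MCM3 (-0.42, SE 0.17, adjusted p = 0.3933) and MCM6 (-0.73, SE 0.31, adjusted p = 0.4145) had the smallest p-values for Brahman minus Holstein-Friesian nodes. At baseline the medians for the same pairs were -0.06, -0.16 and 0.16, and with larvae 0.06, 0.15 and -0.13. Without Holstein-Friesian larva replicate 3 and Bonsmara larva replicate 3 the larval medians were -0.16, 0.16 and -0.36, so that the sign of the first turned. No Bonsmara array enters the first, and leaving out Holstein-Friesian larva replicate 3 alone gave the same -0.16. Bonsmara larva replicate 3 did not stand apart from its fellow arrays (mean correlation 0.19). MCM6, on 1 probe, stood at 0.45, -0.41 and 0.24 in Brahman larval nodes, against 1.52, 0.91 and -0.31 in Holstein-Friesian ones, where the -0.31 is again the array that stands apart. Without that array the Brahman minus Holstein-Friesian difference for MCM6 was -1.12 (adjusted p = 0.0426), against -0.61 (adjusted p = 0.8501) with it. The fit without it called 149 of all features, against 0 with it.

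The genes varied together among arrays of the same group. After the group means were taken off, the median correlation of 2 members over the 27 arrays was 0.73 (561 pairs, 98.4% above 0), as a description of arrays that each share 1 hybridisation. The closest pair was CENPF, a kinetochore protein, and KIF11, with 0.97, and the most distant was PLK1 and TK1, with -0.13. Each gene's correlation with the mean of the others ran from 0.14 in TK1 to 0.96 in CCNB1, and 0.52 in FOXM1 and 0.53 in CCNE1 were the next lowest. CCNE1, the 1 gene called, was thus among those that followed the rest least. By role the median correlation was 0.86 in the kinetochore genes, 0.84 in the spindle genes, 0.81 in the replication fork genes and -0.04 in the nucleotide supply genes, where TK1 correlated with neither of the others. TK1 and FOXM1 are each the mean of 2 probes that agreed little, with correlations of -0.21 and 0.28 over the 27 arrays. The members' median SD within groups was 0.33, against 0.19 over all genes.

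Outside the list, the genes most like the mean of the members within groups were PCLAF (0.96), a PCNA-binding factor, LMNB1 (0.96), the nuclear lamina protein lamin B1, SMC2 (0.95), a subunit of condensin, FAM72A (0.95) and CENPN (0.95), a centromere protein. They are the 5 highest correlations over 27 arrays among 14461 genes, whose median was -0.01. Of the 50 most like, 24 were on the lists of other cell cycle genes described next.

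Besides the 34, 126 other genes of the cell cycle and of replication were measured, of 146 listed. For adult minus baseline 112 were below 0, with a median of -0.21, and limma called 0, while 58 (46%) had an unadjusted p under 0.05 in either direction. For adult minus larva 114 were below 0, with a median of -0.21, and limma called 0, while 53 (42.1%) had an unadjusted p under 0.05. Over all features 11.5% and 10.2% did. The spindle, chromosome structure and cytokinesis genes had medians of -0.31 and -0.26 in these comparisons (31 of 31 below 0 in both), and the kinetochore genes -0.27 and -0.29 (16 of 16 in both). The cell cycle brakes had -0.08 and -0.01, with 9 and 7 of 14 below 0. GADD45A, a DNA damage response gene that slows the cycle, had 0.51 for adult minus baseline (adjusted p = 0.1221), and SPC24, a kinetochore subunit, -0.37 (adjusted p = 0.212). GINS1, part of the replicative helicase, and CCNF, cyclin F, had -0.44 and -0.43 for adult minus larva (adjusted p = 0.08902 for both).

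RBL2, the retinoblastoma-like protein p130 that holds resting cells out of the cycle, was the 1 of these 126 genes that passed in a stage comparison over breeds. A single call is below the 1.21% of all features called for larva minus baseline, so it says nothing about the 126 as a list. RBL2 fell by 0.34 on the log2 scale with larvae relative to baseline (SE 0.0698, adjusted p = 0.01681). In Brahman nodes it stood at -0.26, -0.18 and -0.08 with larvae, against 0.0066, 0.03 and 0.17 at baseline. In Bonsmara nodes it stood at -0.15, -0.02 and 0.06 with larvae, against 0.12, 0.39 and 0.46 at baseline. In Holstein-Friesian nodes it stood at 0.0071, 0.03 and -0.14 with larvae, against 0.41, 0.36 and 0.34 at baseline. Larval arrays lay below baseline arrays in all 3 breeds without overlap, and the call held without any 1 of the 18 arrays (-0.37 to -0.31, adjusted p from 0.009537 to 0.03989). Its difference for adult minus baseline was -0.24 (adjusted p = 0.2196).

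A biopsy mixes cell types, and fewer dividing cells cannot be told apart from less of these mRNAs per cell. Marker genes of other cells moved between the same stages. For adult minus baseline the B cell markers were below 0 in 7 of 7 genes (median -0.18) and the germinal centre B cell markers in 8 of 8 (median -0.20), while the macrophage markers were above 0 in 9 of 10 (median 0.32) and the stroma and vessel markers in 10 of 10 (median 0.57). The cytotoxic and NK cell markers were below 0 in 9 of 10 (median -0.49) and the T cell markers in 9 of 10 (median -0.15), while the plasma cell markers were above 0 in 9 of 9 (median 0.41). None of these genes was called, where 0.0346% of all features were. For adult minus larva the macrophage markers were above 0 in 10 of 10 (median 0.66), and CD163, MRC1, C1QA, C1QB and MERTK rose (0.232% of all features were called). In the same comparison KLRK1 and EOMES of the cytotoxic and NK cell markers rose, the stromal chemokine CCL19 fell, and the plasma cell markers were below 0 in 9 of 9 (median -0.65, 0 called). From larvae to adult ticks the group mean of the array medians rose in every breed for the cytotoxic and NK cell markers. For the stroma and vessel markers it rose in Brahman nodes (-0.06 to 0.18). It fell for them in Bonsmara nodes (0.38 to -0.16) and Holstein-Friesian nodes (0.06 to -0.42). The B cell markers were below 0 in 7 of 7 (median -0.21), whereas the germinal centre B cell markers, unlike the cell cycle genes, were above 0 in 6 of 8 (median 0.08), with 0 called in either list.

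The median of the 10 macrophage markers lay between -0.61 and 0.28 on baseline arrays, -0.83 and -0.13 on larval arrays and -0.15 and 0.74 on adult arrays. The median of the 7 B cell markers lay between -0.90 and 0.30, -0.51 and 0.61, and -1.01 and 0.0012 at the same stages. Brahman adult replicate 3, the lowest array for the cell cycle genes, had the highest macrophage median (0.74) and the lowest B cell median (-1.01). Brahman larva replicate 1 had the lowest macrophage median (-0.83) and the highest B cell median (0.61). Within groups the mean of the 34 genes correlated with the lists at 0.63 for germinal centre B cells, 0.49 for B cells, 0.15 for plasma cells, -0.47 for T cells and -0.60 for macrophages, over 27 arrays that share 1 hybridisation each. The red blood cell and the skin and muscle markers, which would show blood or neighbouring tissue in a biopsy, had medians within 0.05 of 0 in the 3 comparisons over breeds. The part of these cell types in the cell cycle differences was not tested.

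With larvae the markers moved elsewhere than the cell cycle genes. Plasma cell markers were above 0 in 9 of 9 genes (median 0.92) and 5 rose, among them IRF4 (1.05) and JCHAIN (1.56), while 6 of 10 cytotoxic and NK cell markers and 3 of 10 T cell markers fell. Of the stroma and vessel markers 6 of 10 rose (COL1A1 at 1.99, COL3A1 at 1.61, VWF at 1.00, DES at 0.63, CCL19 at 0.61, and COL1A2), and the macrophage markers SIGLEC1 (-1.18) and MERTK (-0.29) fell. Over all features 1.21% were called in this comparison. The germinal centre B cell markers were below 0 in 6 of 8 (median -0.35, 0 called), and the median of the 34 cell cycle genes was 0.04.

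**Figure D5:**
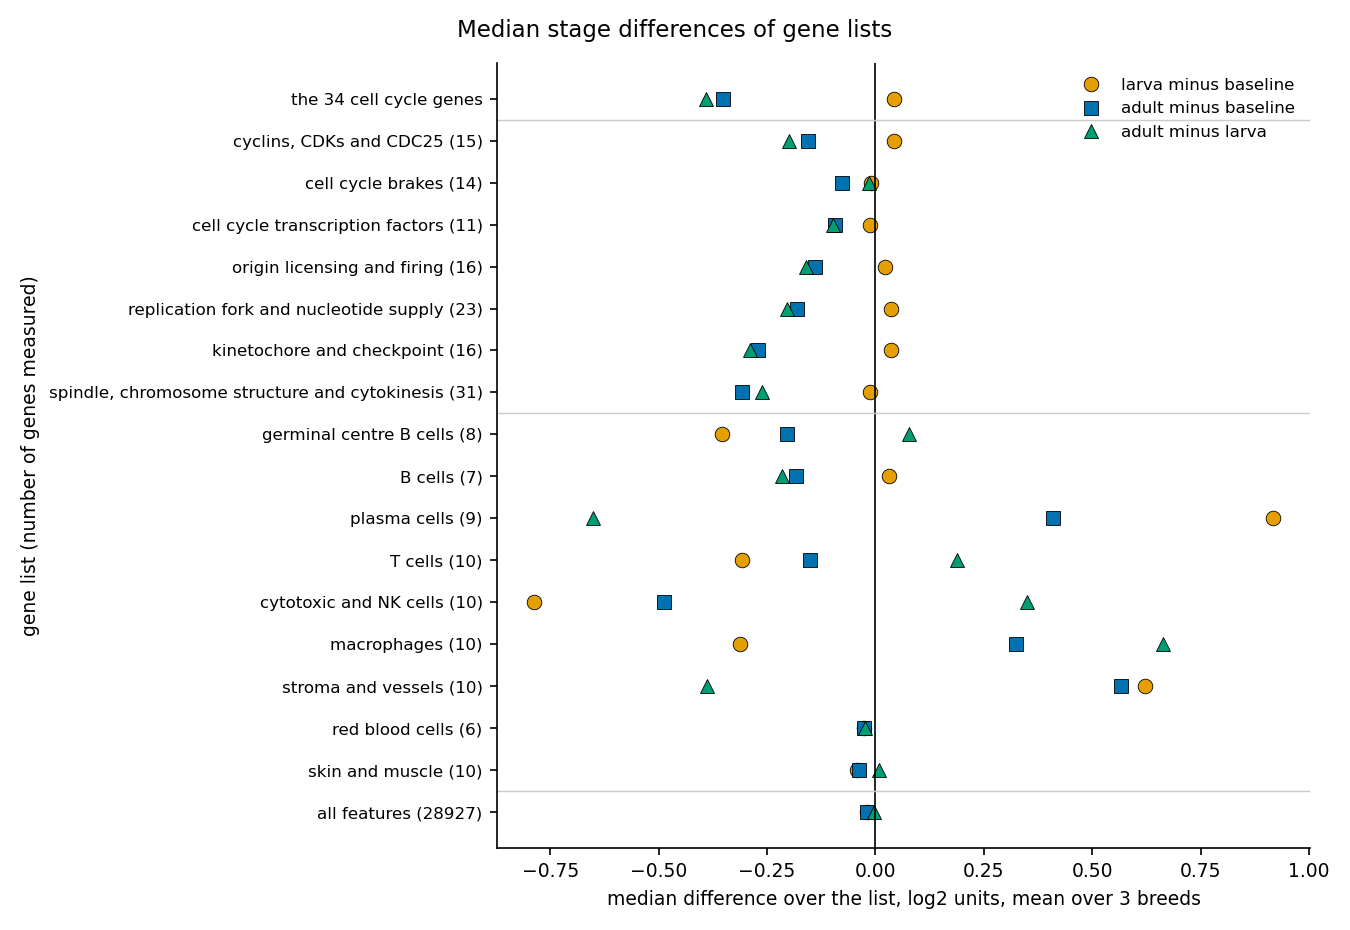
Median difference in log2 ratio over each gene list (rows, with the number of genes measured) for larva minus baseline, adult minus baseline and adult minus larva, as the mean over 3 breeds. The 34 genes and the lists of other cell cycle genes lie left of 0 in both adult comparisons and near 0 for larvae, while macrophage markers lie at 0.32 and 0.66 in the adult comparisons.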

How the data were processed

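RNA of 27 lymph node biopsies was hybridised against a common pool on 2-colour arrays. The authors deposited normalized log2 ratios (per the labels, sample in Cy5 and pool in Cy3). The submitters' processing notes name limma. Its version and the methods of background correction and normalization were not given in the sources used here. Spot intensities were not used, which leaves signal over background unknown. Probe names were taken from the platform table, with 2393 symbols updated through RefSeq. Probes of 1 gene were averaged and unnamed probes kept, giving 28927 features. limma 3.58.1 in R 4.3.3 fitted 1 mean per group over all 27 arrays (18 residual degrees of freedom). Contrasts were tested two-sided, adjusted by Benjamini-Hochberg over all features, at a threshold of 0.05. This fit was also run on simulated data. The simulated features varied independently, and the adult differences planted in them exceeded those of the members over breeds. That run therefore does not show how smaller differences in genes that vary together are detected. The number of arrays limits precision: the median SE over all features was 0.162 within a breed and 0.0937 over breeds. The members, the other lists and the alternatives were chosen with earlier results of these data known. Named were all members called or, where 0 were called, the 4 with the smallest p. Other members were named after their values were seen. Alternatives were array weights, scaling, quantile normalization, probe handling, fits of fewer arrays, a replicate block, leaving out each array and, chosen after seeing the data, leaving out the 3 adult arrays numbered 2.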

Additional observations from a re-analysis of the deposited data

How the results depend on the processing

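That all 34 genes were below 0 for adult minus baseline and for adult minus larva, as means over breeds, held in 37 of 37 alternatives for each. These 37 combine the probes of each gene and do not include the probe level. There a probe of TK1 and of MCM3 lay above 0 for adult minus larva, and a probe of FOXM1 for adult minus baseline. Part of the 37 could not change a sign, since they left the means of the compared groups as they were. They include leaving out an array of a stage outside the comparison, the replicate block and a fit of the compared groups alone. Without any 1 of the 18 arrays compared, where the means do change, all 34 stayed below 0. For larva minus baseline, where 14 genes were below 0, the alternatives gave 7 (without Brahman larva replicate 2 or without Holstein-Friesian baseline replicate 1) to 20 (without Holstein-Friesian baseline replicate 2), and 18 without Brahman larva replicate 1 or without Holstein-Friesian larva replicate 1. The median ran from -0.03 to 0.11 when 1 array was left out. Leaving out 1 array moved the median between -0.42 and -0.28 for adult minus baseline and between -0.47 and -0.31 for adult minus larva. It moved the number of genes at an unadjusted p under 0.05 between 12 (without Brahman adult replicate 3) and 27, between 14 (without Brahman larva replicate 1) and 29, and for larva minus baseline between 0 and 3. The genes past the threshold for adult minus larva numbered 0 to 4 in these fits, and for larva minus baseline 0 to 1. The 4 and the 1 came without Holstein-Friesian larva replicate 3, where 142 and 579 of all features were called. Shares of all features at an unadjusted p under 0.05 are not given for the alternatives. For adult minus larva 5 genes passed with array weights, 2 with arrays scaled to one interquartile range, 2 with quantile normalization, 2 without the arrays labelled Holstein-Friesian larva replicate 3 and Bonsmara larva replicate 3, 2 at the probe level, 0 in a fit of the compared groups alone and 0 without the 3 adult arrays numbered 2, a setting chosen after seeing the data. With array weights these were CCNE1, MCM5, MCM7, RRM2 and UBE2C. Calls over all features moved as well, from 67 in the main fit. They numbered 337 with array weights, 173 with scaling, 251 with quantile normalization and 50 without both labelled arrays. In the compared groups alone 1 feature was called, and 23 were without the 3 adult arrays numbered 2. The probe-level count over all probes is not given. In Bonsmara nodes 3 genes passed for adult minus larva with array weights and 1 with quantile normalization. Of all features 1291 and 418 passed there, against 14 in the main fit. For larva minus baseline 2 genes had an unadjusted p under 0.05 with array weights, 1 with scaling, 1 with quantile normalization, 3 without both arrays and 2 at the probe level. For Brahman minus Holstein-Friesian larval nodes 1 gene, MCM6, passed without both arrays, and 0 to 1 when 1 array was left out. Of all features 135 passed without both arrays and 149 without Holstein-Friesian larva replicate 3, against 0 in the main fit. The Bonsmara minus Holstein-Friesian median at baseline ran from -0.14 to 0.28 when 1 array was left out. The causes of these changes were not tested. With the replicate number as a block 0 genes passed for adult minus larva (CCNE1 at an adjusted p of 0.06456), and features called over all went to 301, 5 and 6 with the block, against 351, 10 and 67 without it (larva minus baseline, adult minus baseline, adult minus larva). The check of the numbers was mixed. Deviations of same-numbered arrays correlated at -0.30 to 0.18, above 0.1 in 7 of 27 pairs. They were highest with their own number in 15 of 27, each out of 3 candidates. In Bonsmara nodes all baseline and larva pairs and all larva and adult pairs matched, and no baseline and adult pair did. No Holstein-Friesian baseline and larva pair matched. Whether the numbers mark shared animals is thus unknown, and the block was kept as an alternative.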
